A study of Mus musculus with 6 samples.

Results

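Immediate early genes are the transcripts that cells switch on first when a growth factor, cytokine or stress signal arrives, before any new protein has been made. The 10 described here were Egr1, Fos, Fosb, Jun, Junb, Jund, Ier2, Dusp1, Zfp36 and Klf4. They were taken by gene symbol, through array probe sets whose only annotated gene was a member, and the brightest probe set stood for a gene with several. All 10 were among the 18193 genes with such a probe set. Of these genes, 13042 had a mean log2 intensity above the 40th percentile of all probe sets (an intensity of 38.9) and were compared, and 9 of the 10 members were among them. Fosb was too dim.

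The samples were small intestine RNA from mice in which Fitm2 (FIT2), a gene for an endoplasmic reticulum protein of lipid droplet formation, was deleted by tamoxifen. KO mice carried ROSA26CreERT2, a tamoxifen-activated Cre recombinase driven from a locus active in most tissues, together with the L/L alleles, and L/L mice carried those alleles without Cre. Both genotypes received intraperitoneal tamoxifen at 100 µg per g on days 1, 2 and 3, and whole flushed small intestine was frozen on day 2, 3 or 5. Each array held a pool of 7 KO or 6 L/L mice on day 2, 6 KO or 6 L/L mice on day 3, and 7 KO or 8 L/L mice on day 5. The labels do not spell out the L/L notation, state no ages, and leave unsaid which injections preceded the kill on the earlier days. KO mice differed from L/L mice in carrying Cre as well as in losing Fitm2, so effects of Cre and of Fitm2 loss cannot be told apart. With 1 array per genotype and day, a difference on a single day has no replicate and no test. The p-values below come from limma across all 13042 genes with the 3 days as the repeats of the genotype difference, so they measure only how much that difference varied between days, and 6 arrays limit their precision.

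Fitm2 had intensities of 123, 127 and 119.6 in KO on days 2, 3 and 5, against 193, 223 and 211 in L/L. Its mean log2 difference of -0.76 ± 0.10 (SD over 3 days) did not pass the limma test (adjusted p = 0.125); whether its probe set lies within the deleted part is not stated in the labels. The enterocyte fatty acid binding protein gene Fabp2 lay between 26843 and 27628 in KO and between 26705 and 27464 in L/L, and all 9 enterocyte markers measured were above the filter. Median intensities over all probe sets were 58.4 to 59.7 in KO and 57.7 to 59.3 in L/L.

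In the textbook account, growth factor signals activate ternary complex factors bound with serum response factor at CArG boxes, and cyclic AMP or stress signals act through CREB and ATF proteins at cyclic AMP response elements (CRE). The induced factors, EGR1 and the FOS and JUN subunits of the dimeric factor AP-1, then control later genes, while DUSP1 and ZFP36 shut the response off. In the intestine these genes respond to growth factors, injury and microbial signals, and KLF4 is also a lasting factor of differentiated and goblet cells.

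The promoters of 8 members were found by symbol in a RefSeq-derived table (GRCm38.p6), each as 250 bases before and 50 after the annotated start site. Entries for Egr1 and Ier2 were not found. The promoters of Fos, Junb, Dusp1 and Zfp36 are shown because they belong to the founding FOS gene, the 2 members next to Egr1 in mean genotype difference, and the member nearest to no difference. They lie at chr12:85473640-85473939 (plus strand), chr8:84978699-84978998 (minus), chr17:26508423-26508722 (minus) and chr7:28379179-28379478 (minus). Capitals mark matches on either strand to the CRE (TGACGTCA), its half-site (TGACG, which the full CRE contains), the AP-1 site (TGANTCA), the EGR site (GCGNGGGCG) and the CArG box.
Fos: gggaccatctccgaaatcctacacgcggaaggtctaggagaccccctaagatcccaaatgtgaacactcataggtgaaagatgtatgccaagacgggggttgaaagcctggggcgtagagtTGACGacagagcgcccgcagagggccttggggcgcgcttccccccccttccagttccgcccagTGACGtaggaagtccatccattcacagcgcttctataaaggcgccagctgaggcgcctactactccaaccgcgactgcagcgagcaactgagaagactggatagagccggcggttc
Junb: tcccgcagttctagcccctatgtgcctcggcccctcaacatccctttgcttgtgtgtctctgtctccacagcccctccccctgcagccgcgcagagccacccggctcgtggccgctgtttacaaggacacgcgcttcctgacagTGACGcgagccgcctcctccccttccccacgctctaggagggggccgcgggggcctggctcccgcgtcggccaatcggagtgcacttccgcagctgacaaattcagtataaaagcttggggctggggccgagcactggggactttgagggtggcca
Dusp1: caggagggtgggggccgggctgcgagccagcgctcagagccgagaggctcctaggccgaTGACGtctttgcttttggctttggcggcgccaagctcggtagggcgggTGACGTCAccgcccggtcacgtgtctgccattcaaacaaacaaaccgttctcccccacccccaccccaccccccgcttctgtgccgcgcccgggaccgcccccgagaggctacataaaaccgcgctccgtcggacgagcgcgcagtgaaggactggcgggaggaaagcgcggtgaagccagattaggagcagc
Zfp36: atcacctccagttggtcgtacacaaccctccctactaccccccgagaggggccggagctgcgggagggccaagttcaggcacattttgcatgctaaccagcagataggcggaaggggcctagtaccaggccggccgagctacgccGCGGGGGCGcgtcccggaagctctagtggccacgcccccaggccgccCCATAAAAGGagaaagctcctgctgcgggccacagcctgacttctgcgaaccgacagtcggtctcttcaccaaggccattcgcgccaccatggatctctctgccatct
Dusp1 held a full CRE at bases -143 to -136 from the start site, as did 1.79% of the 32851 promoters in the table, and a further half-site at -191 to -187. Fos held half-sites at -129 to -125 and -66 to -62, and Junb at -106 to -102. Half-sites were found in 5 of the 8 member promoters and in 20.8% of all promoters. Zfp36 held a CArG box at -58 to -49 (1.63% of all promoters) and an EGR site at -105 to -97. EGR sites were found in 3 of 8 member promoters, those of Fosb, Zfp36 and Klf4, and in 5.55% of all promoters, and the AP-1 site in 0 of 8 and 7.81%. A match is a string of letters and not a shown binding site.

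Egr1, a zinc finger transcription factor, was the member that differed most between the genotypes. Its intensity was 769.8, 1034 and 1767 in KO on days 2, 3 and 5, against 409.7, 529.8 and 422 in L/L. Every KO array lay above every L/L array, which held for Egr1 alone of the 9 members compared and for 7.48% of all genes. By day, the KO level was 1.88-fold, 1.95-fold and 4.19-fold the L/L level. Among 13042 genes these ranked 18th, 25th and 13th from the top, and the mean difference ranked 9th. On the log2 scale that mean was 1.31 ± 0.65 (SD over 3 days; SE 0.24; 95% interval 0.69 to 1.94 before adjustment). It did not pass limma after adjustment over all genes (adjusted p = 0.354). Without day 5 it was 0.94.

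**Figure D1:**
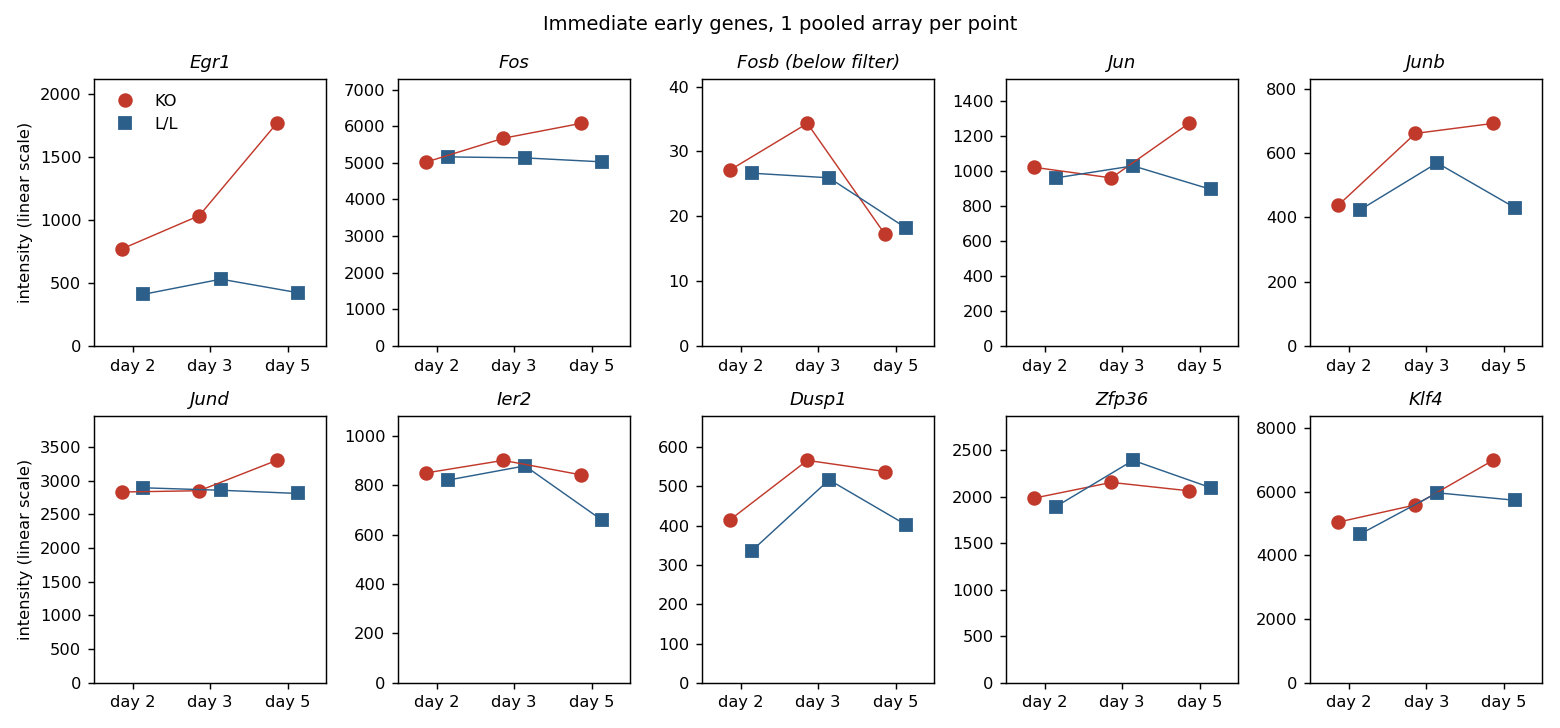
Intensity (linear scale, from 0) of the 10 immediate early genes on days 2, 3 and 5, 1 panel per gene, with KO as red circles and L/L as blue squares, each point 1 pooled array and lines joining the days of a genotype. KO and L/L do not overlap for Egr1 (769.8 to 1767 against 409.7 to 529.8), and they overlap in each other panel.

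The distance between the genotypes in Egr1 widened by 0.41 log2 units per day from day 2 to day 5. The limma test of that slope, which sets it against the moderated scatter of the 3 differences around a straight line, did not pass (adjusted p = 0.0621). No member passed, where 1.23% of all genes did, and 2 members, Egr1 and Junb, had an unadjusted p under 0.05, a share near the 18.4% of all genes that did. The call depended on the settings. Egr1 passed under 5 of 10 alternatives, with adjusted p between 0.0147 and 0.195 over all of them, and the number of genes called in the whole table varied from 0 to 550. Within KO, Egr1 was 1.34-fold higher on day 3 than on day 2 and 1.71-fold higher on day 5 than on day 3, whereas within L/L the same steps were 1.29-fold and 0.796-fold.

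AP-1 is formed by FOS and JUN family proteins that pair through leucine zippers. Of its subunits here, Junb, a member that often restrains JUN, came nearest to Egr1. Junb had intensities of 437, 662 and 693 in KO on days 2, 3 and 5, against 423, 569.7 and 431 in L/L. KO was above L/L on each day, but the groups overlapped, since KO day 2 lay within the L/L range. The fold difference was 1.03, 1.16 and 1.61 by day, with a mean log2 difference of 0.32 ± 0.33 (SD over 3 days; adjusted p = 0.410) and a slope of 0.22 per day (adjusted p = 0.101).

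Jun, the founding member of its family, differed mainly on day 5. It stood at 1022, 961 and 1273 in KO and at 961, 1030.2 and 896 in L/L. The groups overlapped. KO was at 1.06-fold the L/L level on day 2, 0.933-fold on day 3 and 1.42-fold on day 5. A second, dimmer Jun probe set read 473, 468 and 634 in KO against 487, 434 and 447 in L/L. The 2 probe sets had log2 differences of 0.51 and 0.50 on day 5 but opposite signs on days 2 and 3, so for Jun neither early sign was shared. The mean was 0.17 ± 0.31 (SD; adjusted p = 0.567), with a 95% interval from -0.16 to 0.49, and without day 5 it was -0.01.

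Fos encodes the classic partner of JUN proteins. It had 5018, 5671 and 6077 in KO and 5163, 5135 and 5026 in L/L, far above the filter on every array. The groups overlapped through KO day 2, and the log2 differences were -0.04, 0.14 and 0.27. The mean of 0.13 ± 0.16 (SD) did not pass (adjusted p = 0.516; 95% interval -0.08 to 0.34).

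Jund, the most steadily expressed JUN protein, was nearly level on the early days. Its intensity was 2832, 2851 and 3301 in KO and 2894, 2858 and 2809.8 in L/L, a log2 difference of -0.03, -0.00 and 0.23 by day (mean 0.07 ± 0.15 SD, adjusted p = 0.713). A second Jund probe set lay below the filter on every array, between 16.4 and 21.5. Fosb, a FOS relative induced by strong stimuli, was also below the filter intensity of 38.9 on every array, with 27.1, 34.3 and 17.3 in KO and 26.6, 25.9 and 18.1 in L/L, so its differences were not interpreted.

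Ier2, a small nuclear protein gene of the immediate early class, had 849, 900.0 and 842 in KO and 819.8, 878 and 657 in L/L. KO was above L/L on each day by 0.05, 0.04 and 0.36 log2 units. The groups overlapped. L/L day 5 was the lowest of the 6 arrays, and KO day 5 was 0.991-fold KO day 2. The mean was 0.15 ± 0.18 (SD, adjusted p = 0.484).

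The 2 feedback inhibitors differed from each other. Dusp1, a phosphatase that inactivates MAP kinases, had 414, 566 and 538 in KO and 335, 516 and 401 in L/L. KO was above L/L on each of the days, by 1.24-, 1.10- and 1.34-fold, though KO day 2 lay within the L/L range. The mean log2 difference was 0.29 ± 0.15 (SD; 95% interval 0.08 to 0.49 before adjustment), which did not pass after adjustment (adjusted p = 0.381). Zfp36, the RNA-binding protein tristetraprolin that speeds decay of cytokine transcripts, had 1984, 2153 and 2063 in KO and 1892, 2390.0 and 2097 in L/L. All 3 KO values lay inside the L/L range, and the mean difference was -0.04 ± 0.11 (SD, adjusted p = 0.838; 95% interval -0.22 to 0.15).

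Klf4 is a zinc finger factor of differentiating epithelium and goblet cells as well as an early response gene. It had 5047, 5589 and 6988 in KO and 4663, 5969.6 and 5736 in L/L, and KO was below L/L on day 3 alone, with overlapping groups. A second probe set read 3882, 4910.1 and 5607 in KO and 3976, 5110.3 and 4670.1 in L/L. The probe sets disagreed in sign on day 2 (0.11 and -0.03) and agreed on day 5 (0.28 and 0.26). The mean was 0.10 ± 0.19 (SD, adjusted p = 0.620). The 7 goblet cell markers, among them the mucin gene Muc2, had a median difference of 0.03, 0.28 and 0.09 by day, highest on day 3, when the Klf4 difference was lowest. The part of goblet cells in the Klf4 values was not tested.

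By count, 0 of 9 members passed limma over the 3 days, against 0.023% of all genes. At an unadjusted limma p under 0.05, Egr1 and Dusp1 were higher in KO and no member was lower. Of all genes 7.68% were higher at that p, and 601 of 13042 were lower, so few members would be lower at that share. KO was above L/L on all 3 days in 4 of 9 members (Egr1, Junb, Ier2 and Dusp1) and in 22.1% of all genes, and it was below on all 3 days in 0 of 9 and in 17.4% of all genes. By day, the median log2 difference of the 9 members was 0.07, 0.04 and 0.36, while that of all genes was 0.01, -0.01 and 0.02. At 2-fold or more, 0 of 9 members differed on day 2 (0.123% of all genes), 0 on day 3 (0.276%) and 1, Egr1, on day 5 (2.16%). The genotype difference was at its highest on day 5 in 8 of 9 members, all but Zfp36, and in 41.7% of all genes.

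**Figure D2:**
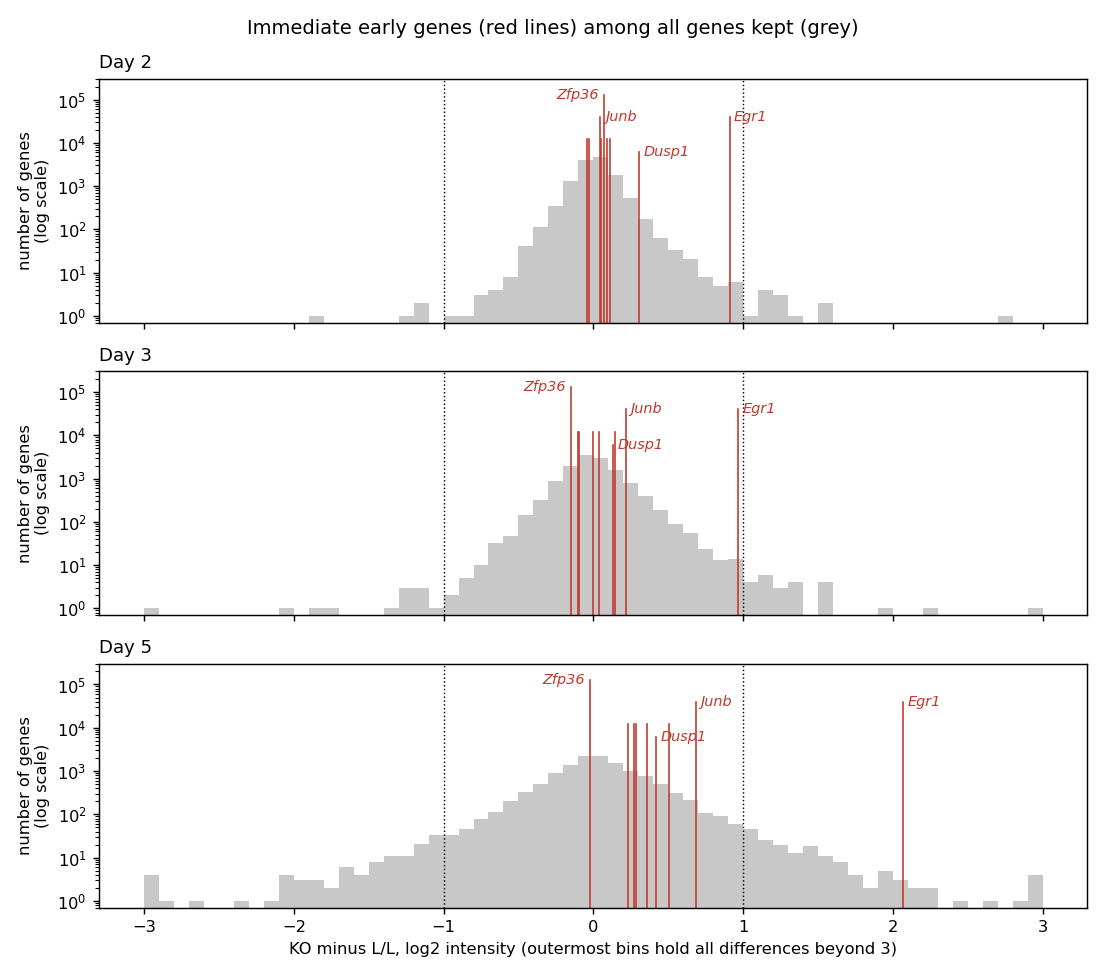
Histograms of the log2 difference KO minus L/L for all 13042 genes (grey, number of genes on a log scale) on days 2, 3 and 5, with the 9 members compared as red lines whose heights carry no meaning, and dotted lines at 2-fold. Egr1 stands far in the upper tail on each day (0.91, 0.97 and 2.07). The other members lie at smaller differences, most of them right of 0 on day 5. Among these, Dusp1 ranked 310th from the top on day 2 and Junb 450th on day 5.

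The days within L/L show how the members differed between arrays of that genotype. From day 2 to day 3, L/L intensities were higher for 7 of the 9 members, with a median of 0.34 log2 units against 0.03 for all genes, and from day 3 to day 5 the median was -0.20 against -0.03. The L/L day 3 array was the highest of the 3 L/L arrays for Egr1, Jun, Junb, Ier2, Dusp1, Zfp36 and Klf4, a pattern found in 40.1% of all genes. The largest of these steps, for Dusp1, was 1.54-fold (0.62 log2 units), the 97th highest among all genes. It exceeded the genotype difference of Dusp1 on any day. For Egr1, L/L day 3 was 1.29-fold L/L day 2 and L/L day 5 was 0.796-fold L/L day 3, both smaller than any of its genotype differences. Within KO, however, Egr1 on day 5 was 2.30-fold day 2, more than its genotype difference on day 2 (1.88-fold) or day 3 (1.95-fold). Steps between single arrays do not set a noise level.

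No member reached 2-fold between L/L arrays. This was 0 of 9 for day 3 against day 2 (0.199% of all genes), 0 for day 5 against day 2 (0.414%) and 0 for day 5 against day 3 (0.161%). Day over both genotypes could be tested in the limma fit that also held genotype. It called 0 members and 0% of all genes, with Dusp1 (adjusted p = 0.196) and Klf4 (adjusted p = 0.267) at an unadjusted p under 0.05. That was 2 of 9 members, a share near the 18.4% of all genes.

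In KO the step from day 3 to day 5 ran differently for several members. KO day 5 was the highest of all 6 arrays for Egr1, Fos, Jun, Junb, Jund and Klf4, 6 of 9 members against 27% of all genes. Junb was 1.05-fold higher on KO day 5 than on KO day 3, while the same step in L/L was 0.756-fold. Dusp1 and Ier2 were slightly lower in KO on day 5 than on day 3 (0.950-fold and 0.935-fold) and lower still in L/L (0.777-fold and 0.749-fold). For Egr1, Fos, Jun, Jund and Klf4 the same step was above 1-fold in KO (1.71, 1.07, 1.32, 1.16 and 1.25) and below 1-fold in L/L (0.796, 0.979, 0.870, 0.983 and 0.961). These steps come from single arrays and were not tested.

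**Figure D3:**
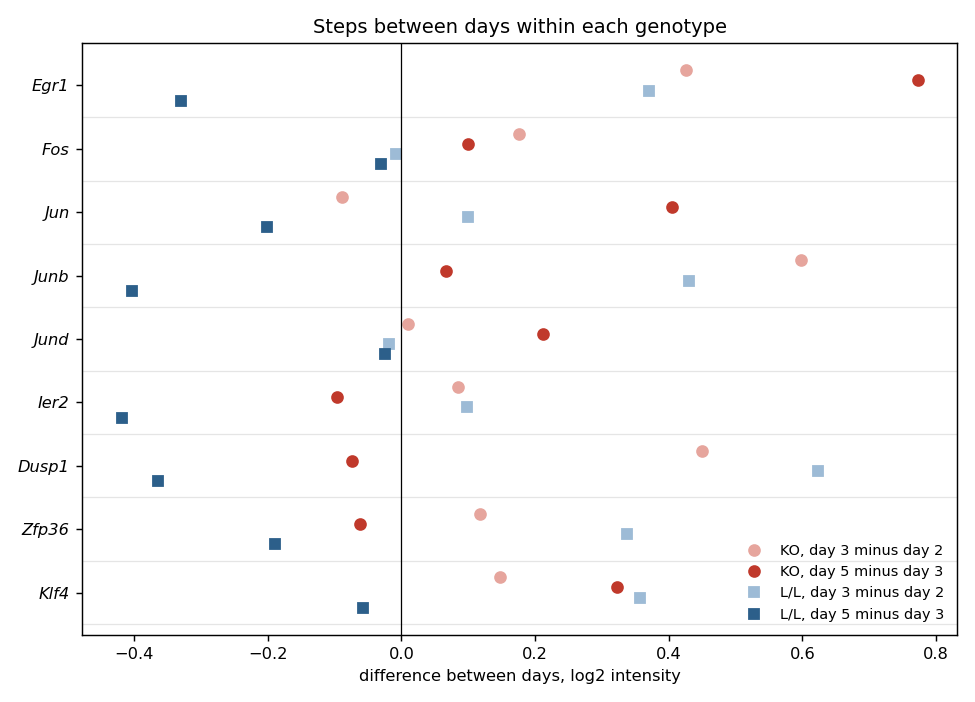
Log2 differences between successive days within KO (red circles, pale for day 3 minus day 2, dark for day 5 minus day 3) and within L/L (blue squares, same shading) for the 9 members compared, each from 2 pooled arrays; steps of 1 genotype share their day 3 array. The dark blue squares are all left of 0 (-0.42 to -0.02), and the dark red circles reach 0.77 for Egr1.

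Beyond the 10 members, lists of other early response genes and of their upstream regulators were examined, each chosen with earlier results of these data known. None of their genes passed limma over the 3 days. Of 16 other transcription regulators measured, 8 were higher in KO on all 3 days and 3 lower, beside 22.1% and 17.4% of all genes, with medians of 0.07, 0.07 and 0.21 by day. The orphan nuclear receptor Nr4a1 had 219, 234 and 269 in KO and 197, 135 and 158 in L/L, a mean log2 difference of 0.57 ± 0.36 (SD, adjusted p = 0.381). The AP-1 subunit gene Fosl1 read 42.0, 49.3 and 77.3 in KO and 41.2, 35.4 and 42.1 in L/L, near the filter intensity. Myc, the growth-promoting factor, averaged 0.42 ± 0.28 (SD) with 425, 536 and 681 in KO and 376, 417 and 412 in L/L, and Ier3 averaged 0.37 ± 0.64 (SD), with 1.09 on day 5 alone.

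Feedback inhibitors other than Dusp1 and Zfp36 had medians of 0.05, -0.09 and 0.29 over 11 genes. Of these, 4 were higher in KO on all 3 days and 0 lower, beside 22.1% and 17.4% of all genes. Dusp6, another MAP kinase phosphatase, was level on the early days and 1.10 log2 units higher on day 5. It had 1798, 2842 and 4089 in KO against 1694, 2616 and 1912 in L/L. The EGF receptor inhibitor Errfi1 averaged 0.40 ± 0.28 (SD), the kinase regulator Trib1 0.28 ± 0.26 (SD) and Dusp4 0.23 ± 0.32 (SD). The cytokine signalling inhibitor Socs3 was lower in KO on days 2 and 3 (-0.32 on both) and higher on day 5 (0.19). It differed most with day among L/L arrays, by 1.21 log2 units on day 5 against day 2.

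Among these early response and upstream lists, effector genes gave the largest share of higher values. Of 20 measured, 14 were higher in KO on all 3 days and 2 lower, beside 22.1% and 17.4% of all genes. Cell type markers gave such shares too. Higher on all 3 days were 8 of 8 endothelial, 5 of 7 goblet, 4 of 8 myeloid and 3 of 8 fibroblast markers. So were 2 of 9 enterocyte, 2 of 8 smooth muscle, 1 of 4 B cell and 1 of 3 adipocyte markers. No T cell, acinar or crypt marker was. At an unadjusted limma p under 0.05, 10 of the 20 effectors were higher in KO and none lower. Of all genes 7.68% were higher at that p, and 601 of 13042 were lower. Endothelial markers were higher at that p in 6 of 8 cases, myeloid in 3 of 8 and goblet in 1 of 7. In the other early response and upstream lists, 5 of 16 transcription regulators, 2 of 11 feedback inhibitors and 1 of 18 upstream genes were higher at that p, and none lower. The effector medians were 0.14, 0.23 and 0.34 by day. Plk2, a polo-like kinase, had 311, 456 and 632 in KO and 271, 237 and 215 in L/L, a mean difference of 0.90 ± 0.68 (SD, adjusted p = 0.381). Its relative Plk3 averaged 0.63 ± 0.33 (SD), the matrix protein gene Thbs1 0.52 ± 0.11 (SD, adjusted p = 0.301) and the EGF receptor ligand gene Ereg 0.51 ± 0.34 (SD).

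The kinases and factors that act upstream of these genes were close to level. Over 18 genes measured the medians were -0.00, 0.01 and -0.02 by day, and 3 genes were higher and 5 lower in KO on all 3 days, beside 22.1% and 17.4% of all genes. Elk3, a ternary complex factor, had the largest mean difference (0.32 ± 0.27 SD), followed by Mapkapk2 (-0.20 ± 0.16 SD), Rps6ka3 (-0.16 ± 0.12 SD) and Creb1 (-0.14 ± 0.14 SD), kinases and a factor whose activity is set by phosphorylation, which arrays do not measure.

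**Figure D4:**
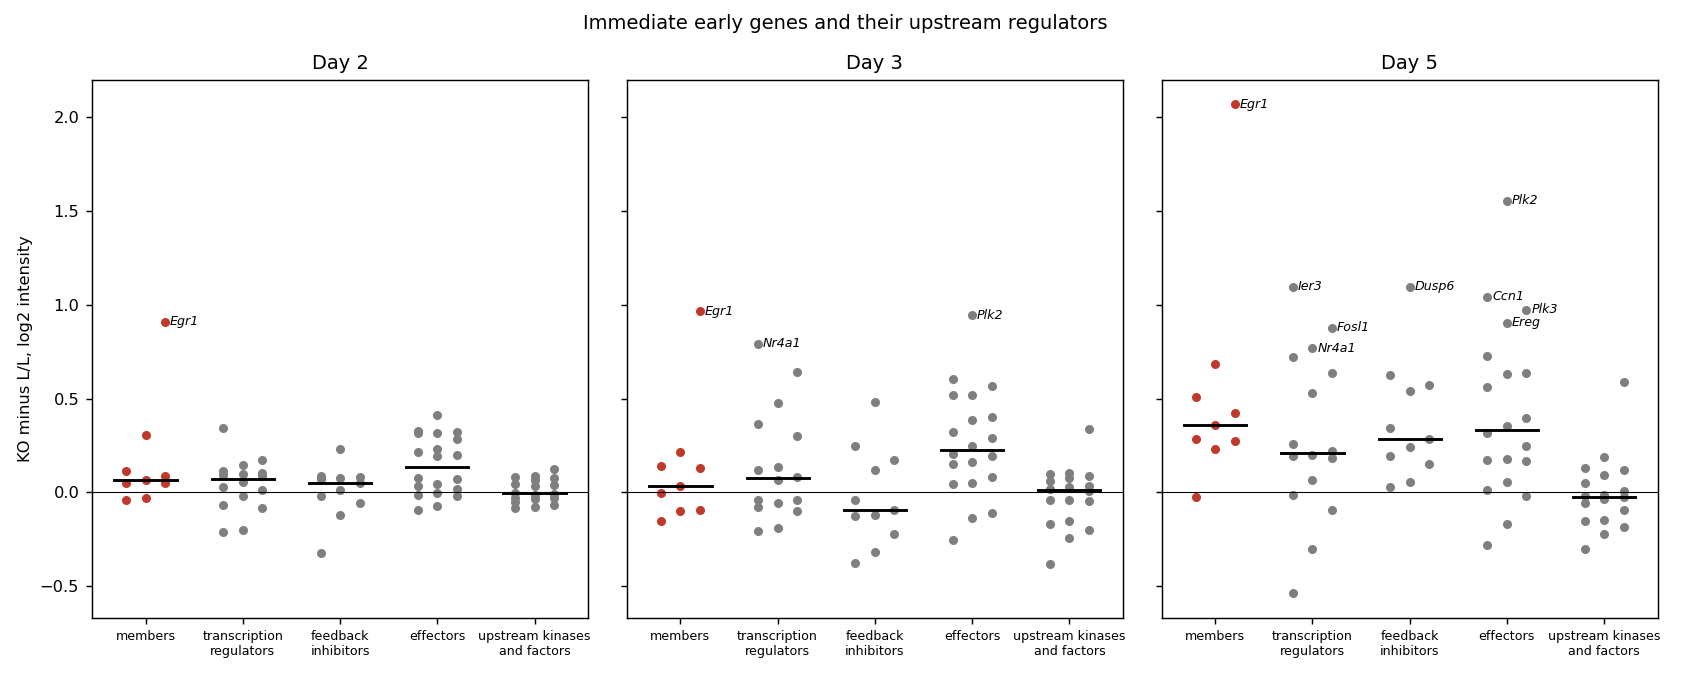
Log2 difference KO minus L/L of each gene on days 2, 3 and 5, for the 9 members (red) and for other early transcription regulators, feedback inhibitors, effectors and upstream regulators (grey), with black bars at the medians and names at 0.75 or more. Medians on day 5 were 0.36 for members, 0.21, 0.29 and 0.34 for the other early response lists and -0.02 for upstream regulators.

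Whole intestine mixes epithelium with muscle, stroma and immune cells, and in such samples more cells of a type and more RNA per cell cannot be told apart. Several marker lists differed between the genotypes along with Egr1. The summed intensity of 8 myeloid markers was 3185, 3637 and 4807 in KO on days 2, 3 and 5, against 2986, 2700.1 and 2273 in L/L. Lyz2 was the brightest of them on KO day 5 (2300). Itgam was lower in KO on days 3 and 5 (-0.32 and -0.24), and Adgre1, Cd68 and Cd14 on day 2 (-0.05, -0.10 and -0.12). The sum of 8 endothelial markers ranged from 1791 to 2124 in KO and from 1408 to 1642 in L/L. The 8 fibroblast markers summed to 12541 to 18687 in KO and 11677 to 13422 in L/L, highest on KO day 5, where the 8 smooth muscle markers also had their highest sum, 38630.0 against 32599 in L/L. The 5 crypt markers, which mark stem and dividing cells, summed to 3043 in KO on day 5 against 8589 in L/L, mostly through Olfm4, a stem cell marker at 1545 in KO and 6061 in L/L. The median crypt difference on day 5 was -0.68, and Ascl2 was higher in KO (0.15). Enterocyte marker sums were between 166192 and 171384 in KO and between 163567 and 170082 in L/L, but several of these markers lie near the top of the array scale, where sums can hide changes, and single markers differed on day 5 by -0.25 (Lct) to 0.17 (Alpi). Because sums follow the brightest markers, the day 5 medians are given too: 0.92 for myeloid, 0.47 for endothelial, 0.50 for fibroblast, 0.23 for smooth muscle and 0.04 for enterocyte markers. The 4 T cell markers summed to 288 to 381 in KO and 337 to 368 in L/L, and the 4 B cell markers to 658 to 1316 in KO and 664 to 1169 in L/L. The 3 adipocyte markers summed to 1103 to 1214 in KO and 755 to 1166 in L/L, and the 5 acinar markers to 601 to 753 in KO and 551 to 716 in L/L. No marker measured was at 0. All 4 neutrophil markers measured lay below the filter. The part of these shifts in the values of Egr1 and the other members was not tested.

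RNA integrity, read from control probe sets at the 2 ends of Gapdh, differed more with day than with genotype. The log2 ratio of the 3′ over the 5′ intensity was -0.27, -0.25 and -0.00 in KO and -0.27, -0.23 and -0.02 in L/L on days 2, 3 and 5. For Actb it was 0.23, 0.22 and 0.35 in KO and 0.24, 0.29 and 0.48 in L/L. For both controls the day 5 array thus had the highest ratio of its genotype, clearly so for Gapdh. For Actb the genotypes also lay apart on day 5 (0.35 in KO and 0.48 in L/L). The part of RNA integrity in the differences between days or between genotypes was not tested.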

How the data were processed

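The members, lists and tests were chosen with earlier results of these data known. The software named is Partek, with RMA as the summary method, per the submitters' processing notes, and no version is given in the sources used here. The authors deposited an intensity for every probe set on 6 Affymetrix arrays, each from 1 pool; values ran from 3.82 to 31146 on a linear scale with near-equal quartiles. Log2 was taken with no offset, and no further normalization was applied.

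Of 45101 probe sets, 64 were controls, 34945 had 1 gene in the platform annotation, 932 several (left out) and 9160 were unlisted; gene IDs of 34741 matched the RefSeq table. limma 3.58.1 in R 4.3.3 fitted genotype with day as a factor (2 residual degrees of freedom, prior 3.03), the product of genotype and centred day (1 residual, prior 4.76) and a moderated F for day, all two-sided, with Benjamini-Hochberg adjustment over 13042 genes at 0.05. The fits were also run on data simulated from the same model, which checks the code and not whether the model suits pooled arrays. The genes named are the 10 members, Fitm2, the 5 genes that correlated best with the members' mean, and, from each other early response or upstream list, genes among the 4 with the largest absolute mean genotype difference and the 2 with the largest absolute L/L day 5 minus day 2 difference. P-values rest on the spread between days, moderated over all genes, and not on the spread between mice. A few cell type markers are named as tissue checks. Olfm4, Ascl2, Lct, Alpi, Lyz2, Itgam, Adgre1, Cd68 and Cd14 were named after their values were seen. Ccn1 is labelled in a plot for its size alone. Alternatives covered probe set choice, filters, an offset of 32, normalization, variance priors, the day term and leaving out each day.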

Additional observations from a re-analysis of the deposited data

Results flagged for a closer look

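For 5 of the 9 members compared, the genotype difference had opposite signs on different days. Among all genes, KO was above L/L on all 3 days in 22.1% and below in 17.4%, so opposite signs were common. The distance between the highest and the lowest day, in log2 units, was 0.61 for Jun, 0.38 for Klf4, 0.31 for Fos, 0.26 for Jund and 0.22 for Zfp36. With 1 array per genotype and day, the difference between any 2 days was not tested. As a straight line over the 3 days, limma gave slopes of 0.16 for Jun (adjusted p = 0.286), 0.08 for Klf4 (adjusted p = 0.593), 0.10 for Fos (adjusted p = 0.343), 0.09 for Jund (adjusted p = 0.370) and -0.02 for Zfp36 (adjusted p = 0.918) per day, none past the threshold. Jun and Zfp36 had their lowest value on day 3, as did Klf4, while Fos and Jund were lowest on day 2. The second, dimmer Jun probe set had its lowest difference on day 2 (-0.04).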

How the results depend on the processing

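No member passed limma for the mean genotype difference or for day under any alternative run. Egr1, Fos, Junb, Ier2, Dusp1 and Klf4 were higher in KO under all 15 alternatives, Egr1 by 0.94 to 1.52 (adjusted p between 0.0850 and 0.753). Many alternatives could not change that sign, since filters, variance priors and the day term leave a gene's mean difference as it was. Without day 5 the mean difference was 0.05 for Fos, 0.04 for Ier2, 0.01 for Klf4, 0.13 for Junb and 0.22 for Dusp1. The sign turned for Jund with the mean of all probe sets (-0.0228). Leaving out each day in turn, the sign also turned for Jund (-0.0175 without day 5 to 0.115), Jun (-0.00556 without day 5 to 0.298) and Zfp36 (-0.0871 to 0.0225 without day 3). For the change with day, 1 member (Egr1) passed with the 60th percentile filter, with arrays centred on the median and with cyclic loess, and 2 (Egr1, Junb) with the offset of 32 and with the trend prior; the cause was not tested. Cyclic loess put 1 member past 2-fold on day 3. At 1.5-fold the members counted were 1 on day 2, 1 on day 3 and 2 on day 5 between the genotypes, and 1 for L/L day 3 against day 2. Of 275 values recomputed, 7 had the opposite sign: the 4 above, and the median of L/L day 5 minus day 2 (0.03), which was -0.00583 without cross-hybridising probe sets and with no filter, and -0.0154 with cyclic loess. The labels give no replicate numbers; with day as a factor, KO was paired with L/L of the same day. Egr1's log2 difference rests on 1 probe set, and that of Zfp36 had no value without cross-hybridising probe sets. Pooling hides the spread between mice, and depth is not defined for arrays: Fosb was compared only with no filter, at a mean difference of 0.12 (adjusted p = 0.687).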

Other observations

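The members differed in how closely they varied together over the 6 arrays. As a description over 6 arrays that share genotype and day, Pearson's r was 0.93 for Junb and Dusp1 and 0.88 for Egr1 and Fos. Among Egr1, Fos, Jun, Junb and Jund, r lay between 0.61 (Junb and Jund) and 0.92 (Jun and Jund). It was 0.04 for Egr1 and Zfp36, 0.01 for Ier2 and Klf4 and -0.12 for Jund and Zfp36, the only negative value. These values were not compared with those of other gene pairs.

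The 5 genes outside the members that correlated best with the members' mean over the 6 arrays were Brix1, Oas3, Psmd7, Fbxo6 and Ppp2r1b. Brix1 is a ribosome biogenesis factor (r = 0.997) and Oas3 an interferon-induced antiviral gene (0.994). Psmd7 is a proteasome subunit (0.991), Fbxo6 a ubiquitin ligase subunit (0.991) and Ppp2r1b a scaffold of protein phosphatase 2A (0.989). They were picked as the highest values among all genes compared. Whether such values exceed what picking over 6 arrays gives was not tested. Pearson's r does not measure the size of a difference, and Egr1 had the widest range in the members' mean. Oas3, for example, had 301, 363 and 429.6 in KO and 251, 331 and 275 in L/L on days 2, 3 and 5.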
